A study of Mus musculus with 11 samples.

Results

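The genes described here are 7 members of the Siglec family of the mouse: Siglecf, Siglece, Siglecg, Cd33, Siglec1, Siglech and Cd22. They were taken by name from the count tables, where each of the 7 had a row among the 27998 genes, and their level and the share of cells holding them were followed through 11 libraries. Macrophages (macs) of brain (microglia), colon (CMs), liver (Kupffer cells, KCs), lung (alveolar macs, AMs) and spleen (SMs) had been sorted by flow cytometry and sequenced with the 3′ counting method of 10x Genomics, in which each captured transcript is counted once by its unique molecular identifier (UMI). The pairs of libraries address how macs of each tissue differ once they have lost ZEB2, a transcription factor.

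For each tissue there was 1 WT library, from Zeb2fl/fl mice without a CRE transgene, and 1 Zeb2KO library, from Zeb2fl/fl mice carrying one. For liver there was also a WT library of CRE-negative Nr1h3fl/fl mice. All mice were C57Bl/6 of mixed sexes, several weeks old, with littermates as controls. By the labels the transgene was Fcgr1-cre in all 5 Zeb2KO libraries. The study's methods, figure legends and table titles give Itgax-cre for the lung and Clec4f-cre for the liver instead. They give Fcgr1-cre for brain, colon and spleen. Labels and study thus differ for liver and lung, and which holds was not tested on the counts. Fcgr1-cre is also active in B cells, T cells and dendritic cells and Clec4f-cre in a minor population of B cells, and the study describes the macs of CRE-positive mice as a mixture of cells with and without a remaining Zeb2 allele in the organs other than the brain. The sort bears directly on Siglecf: AMs had to carry SiglecF on their surface, CMs and SMs had to lack it, and KCs and microglia were sorted without regard to it.

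After removal of outlying cells and of clusters of other cell types, 2830 to 6974 macs per library remained with 7324083 to 42966043 UMIs in all, and the median per cell lay between 2169 UMIs in WT SMs and 9232.5 UMIs in WT CMs. All 6 general macrophage markers were detected in every library, although AMs held them at a summed 691 and 900 UMIs per 1000000 UMIs (CPM) against 4933 CPM or more elsewhere, beside 7543 and 22310 CPM of AM markers. Any pair of libraries shared at most 1.447% of the barcodes of the smaller one. Zeb2 itself stood at 475, 375, 386, 312 and 756 CPM in WT microglia, CMs, KCs, AMs and SMs and at 1747, 476, 781, 481 and 918 CPM in their Zeb2KO counterparts. It was thus higher in every Zeb2KO library, and since the counted 3′ end need not lie in the deleted part, these counts do not check the deletion. With 1 library per group there was no replicate within a tissue, so intervals below are exact 95% intervals that cover counting error only, and no test was made within a tissue.

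Siglecs are cell-surface lectins of the immunoglobulin superfamily that bind sialic acids on glycoproteins and glycolipids. Most carry inhibitory motifs in their cytoplasmic tails that recruit phosphatases such as SHP-1, so that binding to sialic acid dampens activation of the cell. Siglecf (SiglecF) is best known from eosinophils and AMs, Siglece is an inhibitory receptor of myeloid cells, Cd33 is a myeloid member whose mouse form differs from the human one in its signalling parts, and Cd22 and Siglecg restrain signalling through the B cell receptor. Siglech has no inhibitory motif and signals through the adaptor DAP12 in plasmacytoid dendritic cells, with microglia as its other known site, and Siglec1 (sialoadhesin, CD169) is an adhesion receptor of tissue macs that lacks such a motif.

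On mm10 (GENCODE M21), 4 of the 7 genes lie together on chromosome 7 within 308821 bases: Siglecf (chr7:43351341-43359531, plus strand), Siglecg (chr7:43408204-43418358, plus strand), Cd33 (chr7:43524216-43544428, minus strand) and Siglece (chr7:43651070-43660161, minus strand). Cd22 (chr7:30865402-30880342, minus strand) and Siglech (chr7:55768178-55778925, plus strand) are on the same chromosome but apart from them, and Siglec1 (chr2:131069220-131086765, minus strand) is on chromosome 2. Promoter sequences were taken from RefSeq (GRCm38.p6), from 250 bases before to 50 bases after the annotated start, and were found for 6 of the 7 genes. The promoters of Siglecf (chr7:43351091-43351390, plus strand) and Cd33 (chr7:43533122-43533421, minus strand) are shown because they were the only pair among the 6 that shared a run of 12 bases or more. The start that RefSeq gives for Cd33 lies inside the GENCODE span of the gene above, so the stretch shown is not upstream of the GENCODE start. Both are written 5′ to 3′, with the 3 shared runs in capitals.
Siglecf: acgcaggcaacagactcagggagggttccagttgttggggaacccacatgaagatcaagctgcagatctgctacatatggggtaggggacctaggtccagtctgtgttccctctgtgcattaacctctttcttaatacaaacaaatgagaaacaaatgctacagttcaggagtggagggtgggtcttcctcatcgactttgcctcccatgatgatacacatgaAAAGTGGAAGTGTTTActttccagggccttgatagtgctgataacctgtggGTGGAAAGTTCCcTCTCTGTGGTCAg
Cd33: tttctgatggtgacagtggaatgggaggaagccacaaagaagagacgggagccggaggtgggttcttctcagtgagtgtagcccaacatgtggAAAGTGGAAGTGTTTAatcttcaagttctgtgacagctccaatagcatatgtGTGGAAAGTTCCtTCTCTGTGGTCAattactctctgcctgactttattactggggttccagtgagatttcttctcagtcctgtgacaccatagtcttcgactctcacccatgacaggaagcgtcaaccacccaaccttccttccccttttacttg

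The longest shared run, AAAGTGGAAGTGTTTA, starts 27 bases before the annotated start in Siglecf and 157 bases before it in Cd33. It was present in 2 of 32841 promoters (0.00609%), those of these genes. GTGGAAAGTTCC was likewise found in these 2 promoters and in no other of the 32841, and TCTCTGTGGTCA in 9 promoters of 8 genes. The comparison was chosen after the sequences had been seen, and it describes letters, not sites of binding. ZEB2 is known to bind E-box sequences of the form CACCTG. This motif, read on both strands, was present in 20.2% of all promoters of this length and in 2 of the 6 Siglec promoters, Siglech and Cd22. The promoter of Siglech (chr7:55767934-55768233, plus strand), whose gene had the highest level of the family in these data, is shown with the motif in capitals, 20 bases before the start.
Siglech: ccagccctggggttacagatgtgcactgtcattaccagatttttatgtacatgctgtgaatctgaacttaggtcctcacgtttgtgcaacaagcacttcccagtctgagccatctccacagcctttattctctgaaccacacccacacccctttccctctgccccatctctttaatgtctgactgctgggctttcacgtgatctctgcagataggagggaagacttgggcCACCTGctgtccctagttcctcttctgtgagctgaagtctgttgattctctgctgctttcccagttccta

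The 7 genes together took up between 284 CPM (WT CMs) and 1728 CPM (WT microglia), and a different member led in different tissues. UMIs are counted at the 3′ end and carry no factor of gene length, so levels are compared between genes as counted, with the reservation that the capture of 3′ ends can differ between genes. In WT microglia Siglech made up 78.0% of the sum, in WT CMs Cd33 made up 55.5%, in WT KCs Siglece 60.7%, in WT AMs Siglecf 41.8% and in WT SMs Siglece 90.2%. In Zeb2KO KCs the lead passed from Siglece to Siglecf, with 35.8% of the sum, and in Zeb2KO AMs from Siglecf to Cd33, with 70.2%. In the other 3 tissues the leading member was the same gene in both libraries. No gene of the family shared a 50-base stretch of the last 500 bases of its transcripts with another member, so that counting can be expected to keep them apart, but 4 shared such stretches with other genes. These were 196 of 1492 in Siglecg (with the gene model Gm29791), 94 of 1353 in Siglec1 and 12 of 2064 in Siglech (both with many genes) and 3 of 3250 in Cd22 (with Dynlt1c and Dynlt1f).

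**Figure D1:**
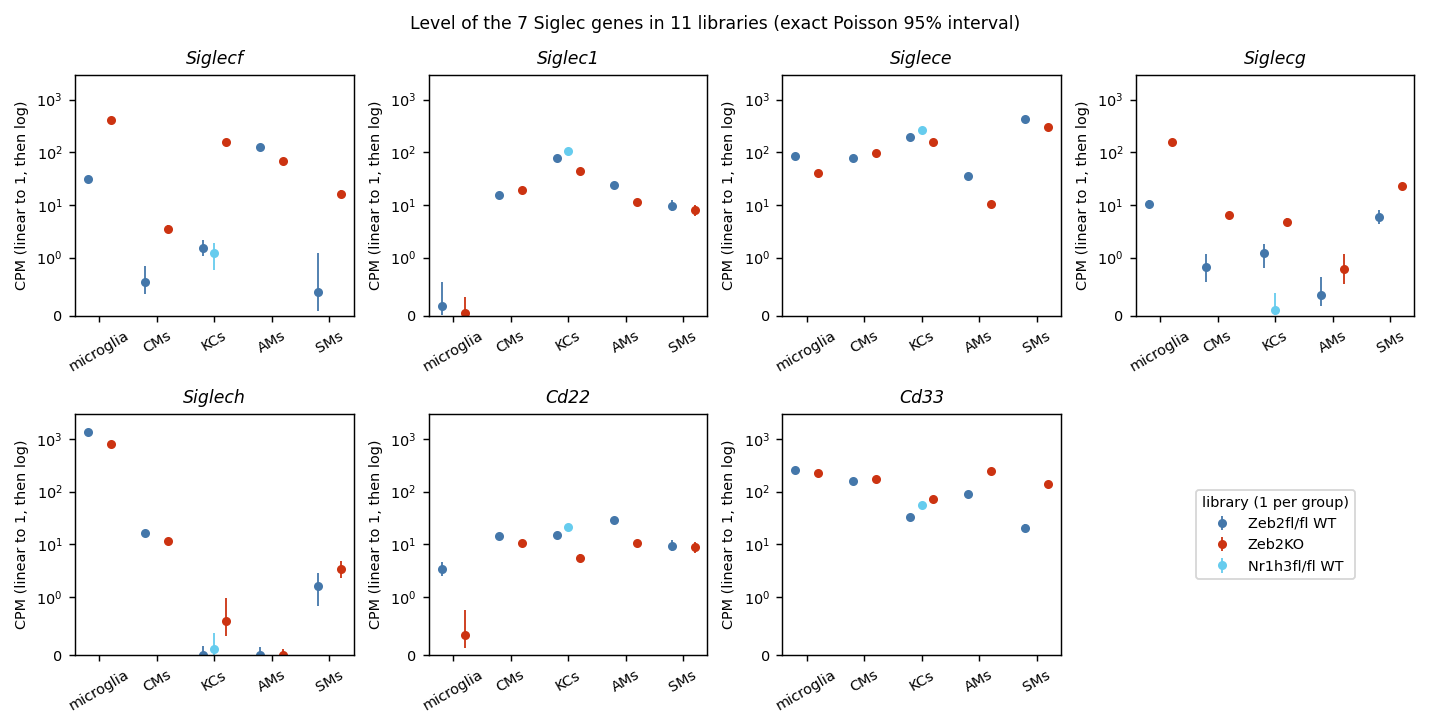
Level of each of the 7 Siglec genes in CPM (linear up to 1, logarithmic above) in the 11 libraries, with exact Poisson 95% intervals; blue is Zeb2fl/fl WT, red Zeb2KO and light blue the Nr1h3fl/fl WT liver, 1 library each. Siglecf ran from 0.410 CPM in WT SMs to 408 CPM in Zeb2KO microglia, and Siglech from 0 CPM in AMs to 1347 CPM in WT microglia.

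Siglecf had the widest range of change in the family, from far higher to lower with the tissue. In WT libraries it was highest in AMs at 126 CPM (122 to 131), followed by microglia at 30.6 CPM (27.6 to 33.9). KCs stood at 1.53 CPM in the Zeb2fl/fl and 1.23 CPM in the Nr1h3fl/fl library, CMs at 0.582 CPM and SMs at 0.410 CPM, the last from 3 UMIs, and the intervals of neighbours among these 4 libraries overlapped. In the Zeb2KO libraries the order was microglia at 408 CPM (399 to 418), KCs at 158 CPM (153 to 163), AMs at 69.3 CPM (66.6 to 72.0), SMs at 15.9 CPM (13.4 to 18.8) and CMs at 3.55 CPM (2.96 to 4.22). AMs, the highest of the WT libraries and selected for the protein, were therefore below microglia and KCs, which had not been selected for it.

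Zeb2KO over WT, the count ratio of Siglecf was 13.3 (12.02 to 14.8) in microglia and 104 (74.7 to 148) in KCs. In SMs it was 38.9 (13.0 to 191), with the wide interval given by the 3 UMIs of the WT library, and in CMs 6.10 (3.95 to 9.77). AMs went the other way with a ratio of 0.549 (0.521 to 0.578). On the log2 scale of CPM plus 1, which understates the change of low genes, these were 3.69, 5.98, 3.59, 1.52 and -0.86. The sort cannot be told apart from the tissue here: the lower level was seen where SiglecF-positive cells had been taken, and the lowest Zeb2KO levels where SiglecF-positive cells had been left out, so CMs and SMs show the mRNA of cells that lacked detectable protein. In AMs all genes tested had a median log2 ratio of -0.31, and composition factors (TMM) moved every ratio of this pair up by 0.29, which gave -0.57 for Siglecf.

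The share of macs with at least 1 Siglecf UMI went from 11.2% (10.0 to 12.4) to 83.1% (81.7 to 84.3) in microglia, from 0.915% to 44.5% (43.0 to 46.1) in KCs and from 37.0% to 31.3% in AMs. It went from 0.530% to 2.70% in CMs and from 0.101% to 4.06% in SMs. With every cell thinned to 1500 UMIs the pairs were 4.17% and 45.1% in microglia, 0.229% and 20.1% in KCs, 17.3% and 10.7% in AMs, 0% and 1.91% in SMs, and 0.0230% and 0.519% in CMs. Thinning left out 28 WT AMs, 797 WT SMs and 524 Zeb2KO SMs that were shallower, and changed none of the 5 directions. The thinned 0% of WT SMs came from 2188 cells and has an exact upper bound of 0.168%.

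A comparison with the share that the same UMIs would give if all macs of a library held Siglecf evenly separated KCs from microglia. Zeb2KO microglia were close to an even spread, with 83.1% observed and 85.0% for an even spread, and so were AMs of either genotype (37.0% and 38.1% in WT, 31.3% and 32.8% in Zeb2KO), although at less than 1 UMI per cell this comparison responds little to differences between cells. In Zeb2KO KCs 44.5% of cells had a UMI where an even spread would give 60.3%. The clusters within each library, formed without the Siglec genes, Zeb2 and Ms4a1, are given as a description only. In Zeb2KO microglia Siglecf lay between 333 and 429 CPM in the 4 clusters, whereas in Zeb2KO KCs 1 cluster of 1888 cells, 48.8% of the macs, held 89.9% of the Siglecf UMIs.

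**Figure D2:**
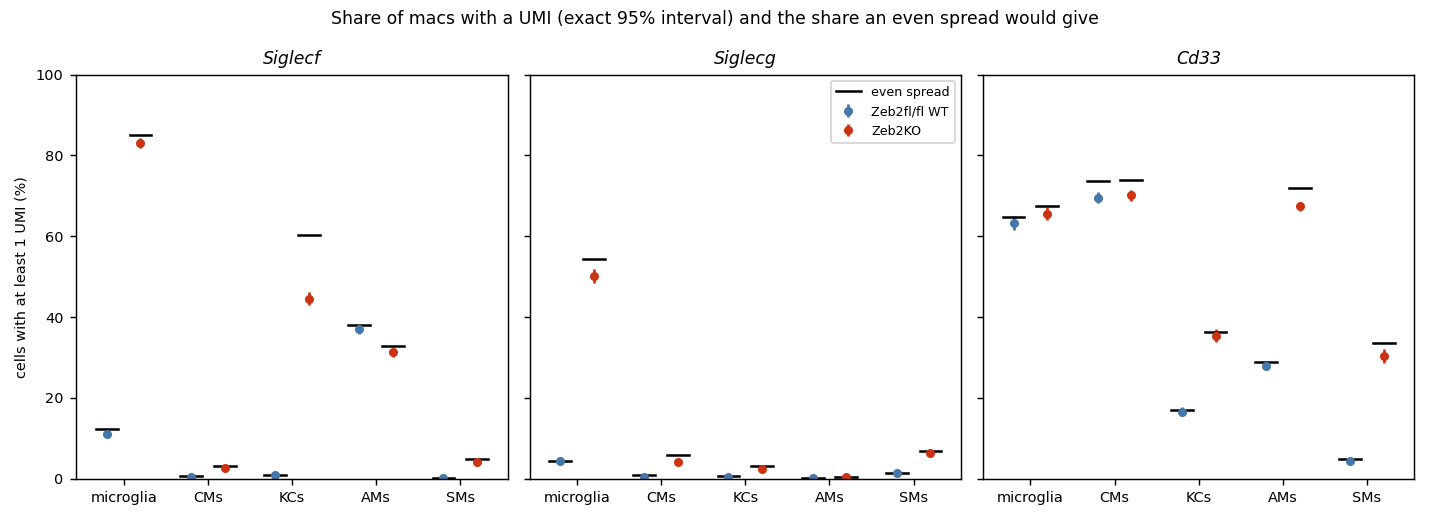
Share of macs with at least 1 UMI of Siglecf, Siglecg or Cd33 (vertical axis, %, exact 95% interval) by tissue, blue for WT and red for Zeb2KO; black bars mark the share that an even spread over the library's cells would give. The point lies furthest below its bar for Siglecf in Zeb2KO KCs, at 44.5% against 60.3%.

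That KC cluster stood at 305 CPM of Siglecf (296 to 316), with Ddit4, Siglecf, Ms4a1 and Pglyrp1 as leading genes, and 0.0231% of the WT cells were in it. A cluster of 97 cells had 192 CPM, and the other 7 lay between 17.0 and 45.0 CPM, still above the 1.53 CPM of the WT library. Clusters also separated the WT livers from each other, with one holding 71.4% of the Nr1h3fl/fl and 4.21% of the Zeb2fl/fl WT cells. Cells of other types in the same Zeb2KO liver library also held Siglecf: 92.7 CPM and 34.4% of 430 endothelial cells (median 6876 UMIs, against 5869 in KCs), and 78.8 CPM and 18.6% of 129 B cells (median 3765 UMIs). In the WT liver these were 2.47 CPM, in 3 of 237 endothelial cells, and 0 of 142 B cells (exact upper bound of the share of cells with a UMI, 2.56%). The 17.0 to 45.0 CPM of those 7 KC clusters were below the levels of these other cells and are not told apart from them, whereas the 305 CPM cluster was above them. All of these cells had passed a sort on Clec4F, and the endothelial cells of the WT library held Siglec1 at 72.9 CPM against 76.9 CPM in KCs. Endothelial clusters of liver held the general macrophage markers at a mean log2 fold of -0.57 and -0.096 over the other clusters. That fold was -0.79 in the liver B cells and -0.42 in the spleen erythroid cells described below. These cells are thus not a comparison free of macrophage RNA, here or below. Whether free RNA, joined cells or CRE activity gave the Siglecf UMIs of the other cell types was not tested.

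In Zeb2KO SMs and CMs, a minority of cells likewise held most of the Siglecf UMIs. A cluster of 692 cells (24.5% of those kept as SMs), led by the genes S100a8, S100a9, Camp and Ngp that are known from neutrophils and their precursors, had 48.8 CPM (40.4 to 58.4) and 83.1% of the UMIs, against 3.08 to 11.6 CPM in the other 5. A cluster of 785 cells (20.4% of those kept as CMs), led by Ms4a1, Hp, Ltb and the neutrophil collagenase gene Mmp8, had 13.2 CPM (10.7 to 16.1) and 76.0% of the UMIs, against at most 3.10 CPM in the other 9. Their mean log2 fold of the general macrophage markers over the other clusters was -0.24 and -1.03. Of 6 neutrophil markers, 6 had UMIs in both spleen libraries, with a sum of 60.8 CPM in WT and 46.3 CPM in Zeb2KO SMs and Ly6g at 0.410 and 0.785 CPM, and 4 in both colon libraries, with 2.19 and 27.6 CPM and Camp and Ngp at 0 CPM. In WT and Zeb2KO AMs the sum was 24.4 and 237 CPM and in microglia 0.973 and 96.2 CPM. Cxcr2 was the highest of the list in both of these Zeb2KO libraries, at 178 CPM in AMs and 96.2 CPM in microglia. The SM and CM sorts had also left out cells carrying Ly6G. The SM and CM clusters above were the highest of their libraries for Zeb2, at 1500 and 718 CPM against at most 979 and 510 CPM in the others. They were also the highest for Ms4a1, at 512 and 142 CPM against at most 49.1 and 18.1 CPM. Higher Zeb2 and Ms4a1 were among the signs by which the study picked out Zeb2-deficient macs. Leading genes of a cluster were taken over its WT and Zeb2KO cells together. Camp and Ngp stood at 38.6 and 19.5 CPM in WT SMs and at 17.5 and 16.8 CPM in Zeb2KO SMs. These genes need therefore not mark the 692 Zeb2KO cells of the SM cluster. The part of neutrophils or their precursors in the Siglecf, Siglecg and Cd33 levels of these clusters was not tested. The clusters held 0.386% and 1.27% of the WT cells of their tissue. Few other cells of these organs had a Siglecf UMI, with one in 3 of 540 Zeb2KO spleen B cells (0.556%, median 3165.5 UMIs, against 2684 in SMs) and in 0 of 158 Zeb2KO colon fibroblasts (exact upper bound 2.31%). Of the eosinophil markers, Epx was at 0 in all 11 libraries, and Il5ra, Prg2 and Prg3 were at 2.42 CPM or less in each. Only Ccr3 was higher, at 24.5 and 237 CPM in WT and Zeb2KO KCs and 831 and 733 CPM in SMs. The study lists Ccr3 among genes that differ between monocyte-derived and embryonic KCs. In Zeb2KO AMs Siglecf ran from 21.7 to 122 CPM over 9 clusters, and in WT AMs from 88.9 to 135 CPM over 8. WT and Zeb2KO AMs lay largely in different clusters: the one with most WT cells held 50.3% of them and 0.749% of Zeb2KO cells, and the one with most Zeb2KO cells, at 59.1 CPM of Siglecf, held 48.1% of them and 0% of WT cells. The Zeb2KO cluster highest in Siglecf also held WT cells. There Siglecf was 125 CPM (117 to 132) in 1719 WT and 122 CPM (78.9 to 180.0) in 52 Zeb2KO cells. Those were 0.832% of the Zeb2KO AMs, and the other Zeb2KO clusters lay between 21.7 and 111 CPM. Being picked by its Siglecf level, this cluster does not stand for Zeb2KO AMs in general. WT and Zeb2KO microglia also lay largely in different clusters, with the 2 main WT clusters holding 0.0308% and 0.339% of Zeb2KO cells.

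**Figure D3:**
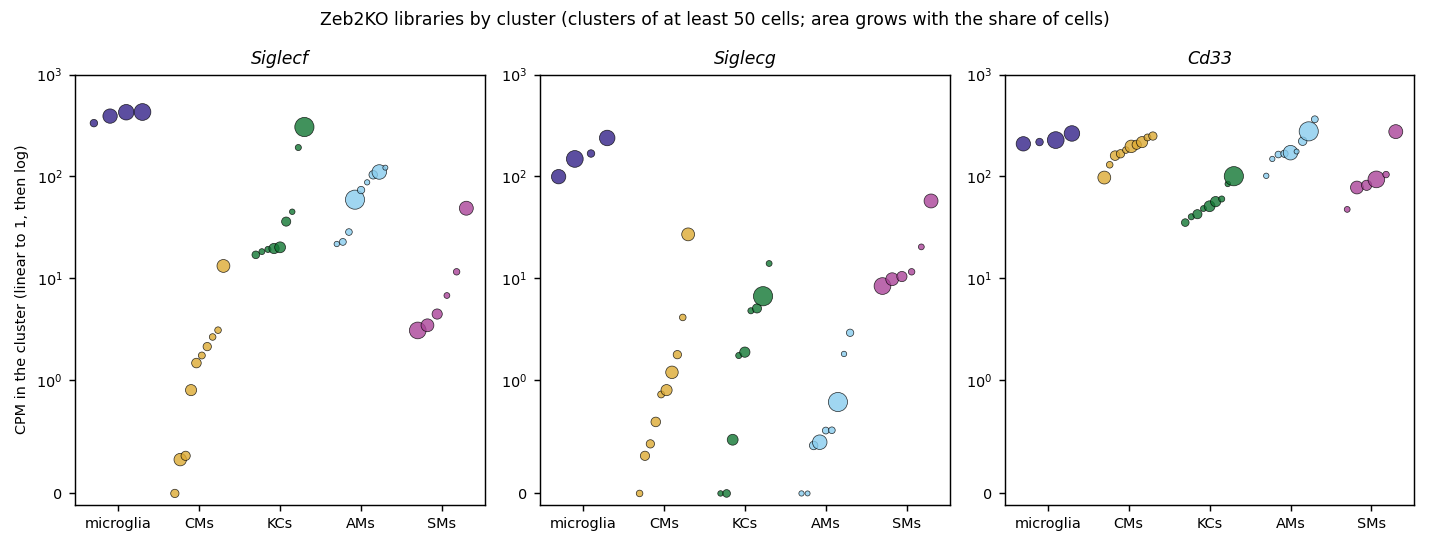
Level of Siglecf, Siglecg and Cd33 in CPM (linear up to 1, logarithmic above) in each cluster of at least 50 macs of the 5 Zeb2KO libraries, by tissue; the area of a point grows with its share of the library's cells. For Siglecf, 1 large KC cluster stood at 305 CPM, above the other 8, while the 4 microglia clusters lay between 333 and 429 CPM.

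The other Siglec genes were then compared between macs with and without a Siglecf UMI within each Zeb2KO library, which are not replicates and also differ in depth. In KCs, the 1724 cells with a UMI had a median of 6366.5 UMIs and the 2146 without one 5396.5. Those with a Siglecf UMI were higher in Cd33 (91.1 against 57.0 CPM) and Zeb2 (1070 against 526 CPM) and lower in Siglec1 (32.7 against 55.9 CPM). Ms4a1, which encodes the B cell protein CD20 and which the study used together with SiglecF as a sign of ZEB2 loss, stood at 177 against 34.5 CPM. In SMs, the 115 cells with a UMI had 59.9 CPM of Siglecg against 20.3 CPM in the other 2715, and 223 against 134 CPM of Cd33. In CMs, 104 cells with a UMI had 20.7 against 5.96 CPM of Siglecg but 145 against 172 CPM of Cd33. In Zeb2KO microglia the log2 ratio was -0.13 for Siglecg, -0.02 for Cd33 and 0.04 for Siglech, each with an interval that included 0, while Zeb2 was lower in the cells with a Siglecf UMI (1722 against 1899 CPM), the opposite of KCs. In Zeb2KO AMs Siglece was higher in the cells with a Siglecf UMI (14.0 against 8.56 CPM) and Cd33 slightly lower (229 against 247 CPM).

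**Figure D4:**
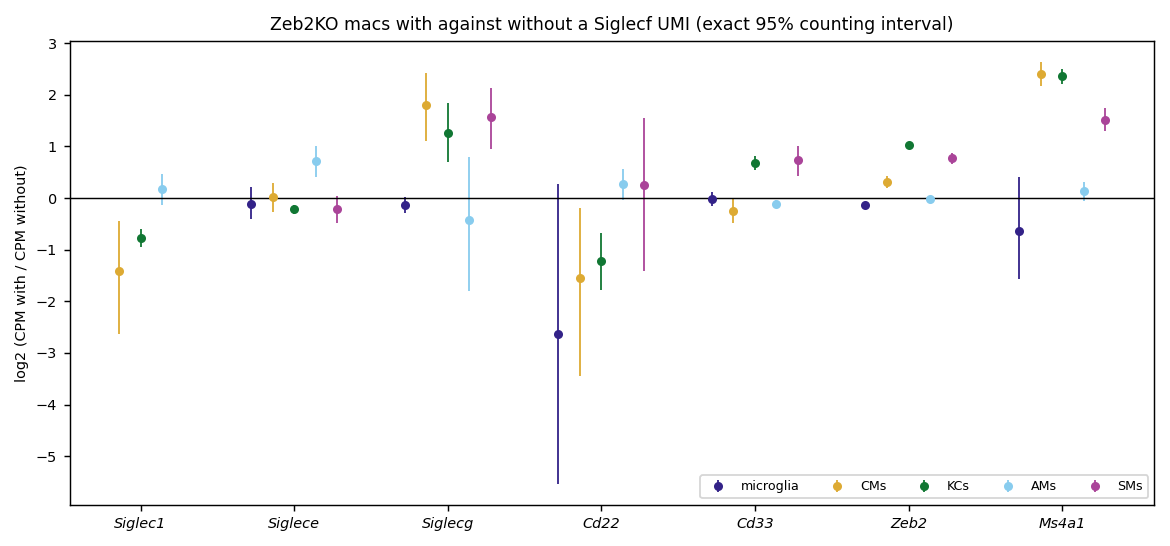
Log2 ratio of CPM in Zeb2KO macs with a Siglecf UMI over those without, for other Siglec genes, Zeb2 and Ms4a1, with exact 95% counting intervals; colours are tissues, and ratios with 0 UMIs on a side are not drawn. The intervals of Ms4a1 and Siglecg lay above 0 in CMs, KCs and SMs and included 0 in microglia and AMs.

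Siglecg was the member that was higher in all 5 Zeb2KO libraries, and microglia showed it most. It went from 10.6 CPM (8.88 to 12.6) to 158 CPM (152 to 164) in microglia, from 6.01 to 22.4 CPM in SMs and from 0.838 to 6.41 CPM in CMs. In KCs it was 1.23 and 4.80 CPM, with 0.107 CPM in the Nr1h3fl/fl WT library, and in AMs 0.364 and 0.805 CPM, or 10 and 30 UMIs. The count ratios were 14.9 (12.5 to 17.9) in microglia, 7.65 (5.37 to 11.2) in CMs, 3.90 (2.58 to 6.06) in KCs, 3.73 (2.68 to 5.30) in SMs and 2.21 (1.05 to 5.06) in AMs. No interval included 1, but only in microglia and SMs did the gene reach 20 CPM in either library. The Nr1h3fl/fl over the Zeb2fl/fl WT liver had a count ratio of 0.0871 (0.0101 to 0.344), from 2 and 29 UMIs. As a count ratio, the difference in KCs is therefore not larger than that between libraries with intact Zeb2. A Siglecg UMI was found in 4.35% of WT and 50.2% (48.5 to 51.9) of Zeb2KO microglia, and in 1.77% and 21.0% after thinning.

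Siglecg is also a B cell gene, and B cells of the same libraries held it at 124 and 141 CPM in WT and Zeb2KO spleen and 199 and 207 CPM in liver. The summed level of 7 B cell markers was 134 and 85.1 CPM in SMs, 42.9 and 8.91 CPM in CMs, 57.9 and 23.9 CPM in microglia, 34.5 and 43.2 CPM in KCs and 0.583 and 1.10 CPM in AMs. It was thus lower in Zeb2KO than in WT libraries in 3 tissues where Siglecg was higher, and its leading gene was Cd79b in all but AMs and Zeb2KO SMs, where Cd79a led, or Vpreb3 in Zeb2KO AMs. Without every cell that held a UMI of these markers, an alternative chosen after seeing the data, the log2 ratio of Siglecg was 3.80 in microglia, 0.40 in AMs, 1.86 in SMs, 1.34 in KCs and 2.25 in CMs, against 3.78, 0.40, 1.74, 1.38 and 2.01 with them. With the clusters of other cell types kept in, it was 0.31 in SMs and the gene no longer counted as changed.

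In some tissues the share of cells with a Siglecg UMI did not exceed that of neighbouring cell types. Erythroid cells of WT spleen had one in 3.11% of 161 cells (median 2604 UMIs) against 1.41% of SMs (2169 UMIs), and those of Zeb2KO spleen in 7.69% of 78 cells (4762 UMIs) against 6.47% of SMs (2684 UMIs). In liver, endothelial cells of the Zeb2KO library had one in 2.79% against 2.51% of KCs. The SM and KC values over all cells are thus not told apart from those of the other cells, the Zeb2KO SMs included, where Siglecg was 22.4 CPM. WT spleen erythroid cells also had Siglece at 293 CPM, against 435 CPM in SMs, and the source of these UMIs was not tested. Within Zeb2KO KCs the cells with a Siglecf UMI had 6.94 CPM of Siglecg and those without 2.90 CPM, so the UMIs were not spread evenly. The SM cluster with most Siglecf was also the highest for Siglecg, at 57.4 CPM (48.3 to 67.8), against 14.1 CPM (5.18 to 30.8) in the erythroid cells, and it held 69.5% of the gene's UMIs. In Zeb2KO CMs the cluster with most Siglecf held 85.8% of the Siglecg UMIs, at 27.0 CPM. In Zeb2KO microglia the gene was seen in all 4 clusters, between 99.5 and 238 CPM.

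**Figure D5:**
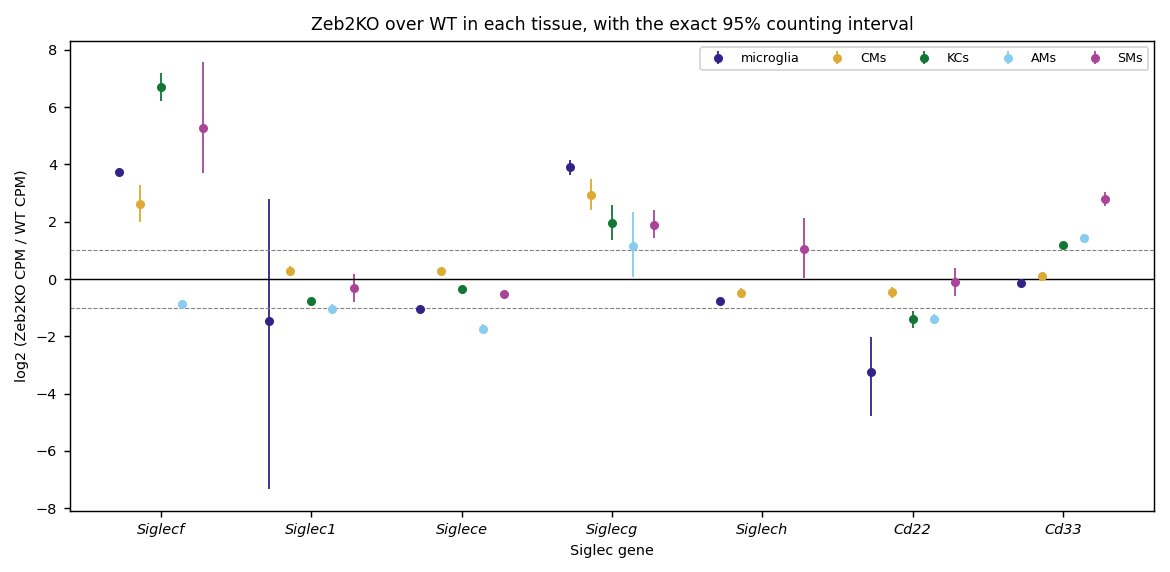
Log2 of Zeb2KO CPM over WT CPM for each Siglec gene and tissue, without an added CPM, with exact 95% counting intervals; dashed lines mark a ratio of 1 on the log2 scale in either direction, and ratios with 0 UMIs in a library are not drawn. Siglecg lay above 0 in all 5 tissues and Cd22 below 0 in all 5, its interval reaching 0 in SMs, while Siglecf was above 0 in 4 and below in AMs.

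Cd33, a receptor of myeloid cells, differed by tissue in a pattern of its own. Its WT levels were 253 CPM in microglia, 158 CPM in CMs, 88.5 CPM in AMs, 54.7 and 32.2 CPM in the Nr1h3fl/fl and Zeb2fl/fl KCs and 20.2 CPM in SMs, and no neighbours in this order had overlapping intervals. In Zeb2KO libraries it was 230.2 CPM in microglia, 171 CPM in CMs, 241 CPM in AMs, 73.0 CPM in KCs and 139 CPM in SMs. The ratio was thus largest in the 3 tissues lowest in WT, and the range over tissues narrowed. The count ratios were 6.89 (5.81 to 8.23) in SMs, 2.72 (2.60 to 2.85) in AMs and 2.27 (2.08 to 2.47) in KCs, against 1.09 (1.05 to 1.13) in CMs and 0.910 (0.868 to 0.954) in microglia.

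A Cd33 UMI was found in 4.46% and 30.4% of WT and Zeb2KO SMs, in 27.9% and 67.4% of AMs and in 16.6% and 35.4% of KCs, and after thinning in 2.74% and 18.3%, 12.1% and 28.5%, and 4.98% and 11.8%. In WT liver, endothelial cells had one in 18.1% (30.3 CPM, median 6772 UMIs) and B cells in 10.6% (26.0 CPM, median 3500 UMIs), so the WT KC value is not told apart from that of the endothelial cells. In WT spleen B cells of like depth had one in 2.31% (1.42 to 3.55), below the 4.46% (3.74 to 5.26) of SMs, whereas the intervals of erythroid cells (4.35%, 1.77 to 8.75) and T cells (2.56%, 0.312 to 8.96) included the SM share. In the Zeb2KO libraries the shares were 29.5% in endothelial cells and 14.0% in B cells of liver and 17.9% in erythroid cells and 7.78% in B cells of spleen, below those of the macs. The call in KCs depended on the control: against the Nr1h3fl/fl WT library the log2 ratio was 0.41 in place of 1.16. In Zeb2KO SMs the cluster that led in Siglecf had 275 CPM of Cd33 (255 to 297) and 53.7% of its UMIs, against 47.5 to 104 CPM elsewhere. The CM cluster that led in Siglecf was instead the lowest of its library for Cd33, at 97.5 CPM, and in AMs Cd33 ran from 101 to 364 CPM over 9 clusters.

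Siglece, the myeloid inhibitory receptor, was lower in 4 of 5 Zeb2KO libraries. SMs had 435 CPM in WT and 305 CPM in Zeb2KO, KCs 196 and 155 CPM, microglia 83.2 and 40.7 CPM, CMs 79.2 and 96.7 CPM, and AMs 34.9 and 10.4 CPM. The count ratio was smallest in AMs at 0.297 (0.263 to 0.334), followed by microglia at 0.489 (0.444 to 0.540), and it was 0.701 (0.665 to 0.738) in SMs and 0.792 (0.759 to 0.827) in KCs. CMs were the exception with 1.22 (1.16 to 1.28). Other cells of these libraries also held Siglece: endothelial cells 147 and 116 CPM in WT and Zeb2KO liver and 242 CPM (197 to 294) in the Nr1h3fl/fl liver, and erythroid cells 293 and 158 CPM in WT and Zeb2KO spleen. The level of the Nr1h3fl/fl KCs is not told apart from that of their endothelial cells. The share of Zeb2KO SMs with a UMI (54.8%) is not told apart from that of erythroid cells (56.4%), which were deeper (median 4762 against 2684 UMIs). By level, Zeb2KO SMs were above the erythroid cells, at 305 CPM (293 to 316) against 158 CPM (122 to 200). The WT livers differed from each other by more than the KC pair did, with 261 CPM in the Nr1h3fl/fl library, so the difference in KCs is not larger than that between 2 libraries with intact Zeb2.

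Siglec1, the sialoadhesin of tissue macs, was highest among the macs in KCs, at 76.9 and 106 CPM in the Zeb2fl/fl and Nr1h3fl/fl WT livers. Endothelial cells of these livers had 72.9 CPM (60.4 to 87.4) and 88.7 CPM (62.5 to 122), so the KC level is not told apart from theirs. These endothelial cells also held macrophage markers, so the likeness does not place the Siglec1 UMIs in either cell type. AMs had 23.4 CPM, CMs 15.4 CPM, SMs 9.69 CPM and microglia 0.162 CPM, the last from 2 UMIs. In the Zeb2KO libraries KCs had 45.0 CPM, a count ratio of 0.585 (0.542 to 0.630), and AMs 11.4 CPM, a ratio of 0.487 (0.429 to 0.551). In CMs it was 19.0 CPM, a ratio of 1.23 (1.10 to 1.37), and in SMs 7.85 CPM, with a ratio of 0.810 whose interval (0.574 to 1.14) included 1. Against the Nr1h3fl/fl library the log2 ratio in KCs was -1.22 in place of -0.76. In Zeb2KO KCs the cluster high in Siglecf had 32.8 CPM of Siglec1, within the 7.21 to 94.3 CPM of the other 8.

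Siglech was by far the most abundant member and was a microglial gene, with 1347 CPM (1327 to 1368) in WT and 784 CPM (771 to 798) in Zeb2KO microglia, a count ratio of 0.582 (0.569 to 0.596). A UMI was present in 98.1% and 94.0% of these cells, and in 83.6% and 66.6% after thinning. All 4 clusters of Zeb2KO microglia were below the WT level, from 593 to 998 CPM. The difference did not reach the size limit of 1 on the log2 scale, at -0.78. CMs had 16.2 and 11.4 CPM, spread unevenly over the WT clusters from 1.70 to 34.7 CPM, and SMs 1.64 and 3.37 CPM. Colon fibroblasts held 3.18 and 4.80 CPM. No UMI was found in 6974 WT and 6252 Zeb2KO AMs, with exact upper bounds of 0.0529% and 0.0590% of cells with a UMI, nor in 3933 WT KCs of the Zeb2fl/fl mice (0.0937%). In Zeb2KO KCs 14 of its 15 UMIs came from 1 cell.

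Cd22, the B cell inhibitory receptor, was lower in all 5 Zeb2KO libraries. Its WT and Zeb2KO levels were 28.3 and 10.7 CPM in AMs, 14.7 and 5.55 CPM in KCs, 14.3 and 10.4 CPM in CMs, 9.42 and 8.75 CPM in SMs and 3.41 and 0.354 CPM in microglia. The ratios were 0.377 (0.333 to 0.426) in AMs, 0.376 (0.307 to 0.459) in KCs, 0.729 (0.639 to 0.830) in CMs and 0.104 (0.0362 to 0.246) in microglia, and in SMs 0.929 with an interval (0.663 to 1.30) that included 1. AMs had most Cd22 of the WT libraries while their B cell markers summed to 0.583 CPM, of which Cd79b had 0.146 CPM. In spleen and liver the level is not told apart from that of other cells, since erythroid cells had a UMI in 3.73% and 3.85% of cells in WT and Zeb2KO spleen against 2.24% and 2.58% of SMs, and endothelial cells in 9.28% and 3.26% in liver against 8.11% and 3.31% of KCs. B cells of these organs had one in 27.9% to 38.5% of cells. In WT colon it was in 12.4% of CMs and in 1 of 174 fibroblasts (0.575%, median 8240 UMIs).

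Of the family members outside the 7, Mag, the myelin-associated glycoprotein of oligodendrocytes, lies 18833 bases from Cd22 on the same strand (chr7:30899176-30914873, minus strand), and Siglec15 had no UMI in the macs of any library. Mag also had UMIs in every library and was lower in all 5 Zeb2KO libraries: 32.7 and 1.18 CPM in microglia, 24.0 and 8.56 CPM in AMs, 13.1 and 8.58 CPM in KCs, 12.3 and 6.95 CPM in SMs and 7.87 and 6.71 CPM in CMs. Only in CMs did the interval of the count ratio, 0.721 to 1.01, include 1. Which transcripts gave the Mag and Cd22 UMIs of macs was not tested.

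How many of the 7 genes changed by a rule of size was then counted beside all genes. Changed genes were those at 20 CPM or more in either library of a pair whose log2 ratio (of CPM plus 1) was 1 or more in either direction. A gene could thus enter through the library in which it was higher. Siglecf in KCs and Siglecg in microglia and SMs entered through Zeb2KO alone (WT 1.53, 10.6 and 6.01 CPM). Siglece, Cd22 and Siglec1 in AMs entered through WT alone (Zeb2KO 10.4, 10.7 and 11.4 CPM). Calls of such genes follow in part from the filter, among all genes too, and are a description only. In microglia 2 of the 5 Siglec genes at that floor were higher (Siglecf and Siglecg) and 1 lower (Siglece), where 4.27% of 5922 genes were higher and 4.07% lower. Siglece passed narrowly, at -1.01, and composition factors (TMM) moved every ratio of this pair up by 0.094, which ended its call. In KCs 2 of 4 were higher (Siglecf and Cd33), where 3.45% of 5395 genes were higher and 1.22% lower. Against the Nr1h3fl/fl WT liver Siglecf was higher, Siglec1 (-1.22) and Cd22 (-1.78) were lower, and Cd33 (0.41) was not called. The share of all genes was not counted for that pair, so these calls stand without it. In AMs 1 of 5 was higher (Cd33) and 2 were lower (Siglece and Cd22), where 4.35% of 5812 genes were higher and 7.33% lower. In SMs 2 of 3 were higher (Siglecg and Cd33), where 2.55% of 6157 genes were higher and 0.958% lower. In CMs 0 of 2 were called, where 1.08% of 5113 genes were higher and 0.489% lower. Between the 2 WT livers 0 of 4 were called and 1.33% of 5559 genes in either direction. The median log2 ratio of the members at the floor was -0.14, 0.41, -0.98, 1.74 and 0.20 in microglia, KCs, AMs, SMs and CMs, where that of all genes at the floor was -0.09, 0.02, -0.31, -0.02 and 0.05. The SM median was the value of Siglecg, which entered through Zeb2KO alone.

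Whether a gene shifted alike over all tissues was asked with edgeR on the whole table, where the 5 tissue pairs served as replicates and tissue was blocked. For Siglecf these pairs were not like replicates, since the sort took SiglecF-positive AMs and left out SiglecF-positive CMs and SMs. No gene passed an adjusted p of 0.05 (0% of 14002 tested), the smallest adjusted p being 0.0752, while 1612 genes had an unadjusted p under 0.05. Siglecg had a log2 fold change of 2.58 ± 0.39 (SE), an edgeR p of 3.64e-04 and an adjusted p of 0.166, and was higher in 5 of 5 pairs. With all deposited barcodes, other cell types included, it had 1.61 ± 0.63 and an edgeR adjusted p of 0.511, and over the edgeR alternatives its adjusted p ran from 0.0922 to 0.9999. Siglecf had 3.42 ± 1.13 (edgeR adjusted p = 0.351, higher in 4 of 5, and from 2.52 without the liver pair to 4.48 without the lung pair), Cd33 1.11 ± 0.43 (edgeR adjusted p = 0.415, higher in 4 of 5) and Cd22 -1.08 ± 0.36 (edgeR adjusted p = 0.353, lower in 5 of 5). Siglece, Siglec1 and Siglech had -0.61 ± 0.24, -0.43 ± 0.20 and 0.09 ± 0.58, with edgeR adjusted p-values of 0.416, 0.472 and 0.970. DESeq2 on the same sums called 370 of 13094 genes (2.83%), among them Siglecg (adjusted p = 4.04e-07) and Siglecf (adjusted p = 0.00886) and none of the other 5. The outcome for these 2 genes therefore depended on the tool. Because UMIs were summed over cells, a change in the number of expressing cells and a change in RNA per cell cannot be told apart in these sums.

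The genes around the receptors were followed through lists chosen for their roles. Of 10 adaptors and signalling partners, among them Tyrobp (DAP12), Ptpn6 (SHP-1) and Syk, 8 or 9 reached 20 CPM in each pair and 0 passed the size rule in any tissue, beside the 1.08% to 4.35% of all genes higher and 0.489% to 7.33% lower given above, so that 0 of 8 or 9 is near the share of all genes. Of 34 genes of sialic acid synthesis, transfer and removal, 8 to 13 reached the floor. In microglia 2 of 13 were higher and 1 lower (all genes 4.27% and 4.07%), in SMs 2 of 12 were higher (2.55%), in CMs 1 of 12 (1.08%), in AMs 1 of 8 (4.35%) and in KCs 0 of 12 in either direction, counts too small to set apart from all genes. The sialyltransferase St3gal5, which makes the ganglioside GM3, was higher in SMs (47.2 to 198 CPM, a log2 ratio of 2.04) and CMs (5.98 to 23.5 CPM, 1.81) and not in KCs, where it was 364 and 314 CPM. Npl, the lyase that breaks down sialic acid, was lower in microglia (317 to 152 CPM) and higher in SMs (81.6 to 174 CPM), and it also differed between the WT livers (55.4 and 11.6 CPM). Of 7 proteins known to carry Siglec ligands, 3 or 4 reached the floor, and 1 of 3 was lower in microglia (all genes 4.07%), 2 of 4 were higher in AMs (4.35%) and 0 passed in the other tissues. Selplg, which encodes the selectin ligand PSGL-1, was lower in microglia (3756 to 1637 CPM, a log2 ratio of -1.20) and higher in AMs (161 to 359 CPM, 1.15).

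The genes whose log2 level followed each Siglec gene most closely over the 11 libraries were taken from 8025 genes, as a description that rests on 5 tissues and their depth as much as on genotype. For Siglecg the closest was Bcl11a, a transcription factor of lymphoid and plasmacytoid dendritic cells (r = 0.96), which stood at 2.68 and 61.0 CPM in WT and Zeb2KO microglia, followed by Ascc1 and I830077J02Rik. For Siglecf they were 1600014C10Rik (r = 0.94), Ddx27 and Exosc5, and Siglecg itself had r = 0.44 with it and Cd33 r = 0.52. For Siglech they included Cxxc5 and Ak1, and for the others they were, for Siglec1 Cox5a, Nop10 and Stom, for Siglece Pygb, Zswim6 and Lbh, for Cd22 Rbms2, Sepn1 and Pdcd5, and for Cd33 Slc38a2, Ubxn4 and Spint1. The closest gene of each had an r between 0.94 and 0.99.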

How the data were processed

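The authors aligned the reads to mm10 with STAR within Cell Ranger and deposited raw UMI counts for 27998 genes per barcode; KC and AM libraries ran on a NextSeq500 and the others on a HiSeq. The labels do not say how many mice gave each library. Every column belonged to a library with a group. The 7 members and all lists were chosen with earlier results of these data known, as were the limits for leaving out clusters of other cell types.

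Barcodes beyond 3 median absolute deviations in UMIs, genes or mitochondrial share were removed (4.66% to 9.22% of each library), and so were clusters of other cell types (0% to 28.0%). Clusters came from scanpy 1.11.5 and leidenalg 0.10.2 (2000 variable genes, 30 principal components, 15 neighbours, resolution 0.8), and those of at least 50 cells are described. Scrublet called at most 0.0801% of barcodes, so doublets were not removed in the main values. UMIs were summed over macs per library and divided by the library's total in macs to give CPM. Log2 ratios used CPM plus 1. Genes at 20 CPM or more counted as changed from a log2 ratio of 1 upwards or of -1 downwards, shares were also taken after thinning to 1500 UMIs, and count-ratio intervals are exact at 95% without an added CPM. The common shift was fitted in edgeR 4.0.16 (quasi-likelihood, tissue as block, 10 libraries, Benjamini-Hochberg adjustment) and, as an alternative, in DESeq2 1.42.0, both in R 4.3.3. The edgeR fit was tested on simulated data and the DESeq2 fit was not, which gives no ranking of the tools. Beyond the 7 members, partner genes were named when they passed the size rule in at least 2 tissues, and the 3 genes most like each member by Pearson's r were named, except 1 that is not reported here. Promoter runs were compared after the sequences had been seen. Alternatives were other controls, floors, pseudocounts, TMM factors, cell sets and leaving out each tissue pair.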

Additional observations from a re-analysis of the deposited data

Results flagged for a closer look

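Some Siglec genes went in opposite directions in different tissues, with counting intervals on either side of no difference. These differences between tissues were not tested, since each rests on 1 library per group. For Siglecf the log2 ratio of Zeb2KO over WT was 3.69 in microglia and 5.98 in KCs but -0.86 in AMs. For Siglece it was 0.29 in CMs, against -1.01 in microglia, -0.33 in KCs, -1.66 in AMs and -0.51 in SMs. For Cd33 it was -0.14 in microglia, against 2.72 in SMs, 1.44 in AMs, 1.16 in KCs and 0.12 in CMs. The Cd33 values of microglia and CMs and the Siglece values of CMs and KCs were smaller in size than the 0.75 and 0.42 by which these genes differed between the WT livers.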

How the results depend on the processing

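Of 31 log2 ratios whose interval excluded 0, 0 changed sign over 224 alternative values. The values with a pseudocount of 0.1 CPM could not change sign, and the alternative cell sets overlapped largely with the main one. The new values given here are of ratios that moved by more than the reach of their counting interval. With TMM factors the ratios were -0.69 for Siglech and -0.041 for Cd33 in microglia, and in AMs -0.57 for Siglecf, -0.69 for Siglec1, -1.37 for Siglece, -1.04 for Cd22 and 1.72 for Cd33. Siglece in microglia stayed within its interval but fell short of -1 and was no longer called. With a pseudocount of 0.1 CPM, Siglecf was 2.42 and Siglecg 2.79 in CMs and Siglecf 6.60 in KCs. With all deposited barcodes, Siglecg was 0.44 in KCs and 0.31 in SMs and Siglece -0.44 in SMs, and with clusters of other cell types kept Siglecg was 0.43 in KCs and 0.31 in SMs. Either setting left 1 gene changed in SMs in place of 2, and a floor of 5 CPM gave 1 in CMs in place of 0. Against the Nr1h3fl/fl WT liver, KCs had -1.22 for Siglec1, -0.75 for Siglece, 2.39 for Siglecg, -1.78 for Cd22 and 0.41 for Cd33, which gave 3 changed genes in place of 2. How many of all genes were called under these settings was not counted, so the counts of changed Siglec genes stand without that share. The causes were not tested.

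For the common shift, the libraries of a tissue were paired by that tissue as a block. Without the block edgeR called 0 genes, with 110 at an unadjusted p under 0.05, and Siglech had -0.70 in place of 0.09. Leaving out 1 tissue pair at a time, Siglecf ran from 2.52 (without liver) to 4.48 (without lung), and Siglech ran from -0.25 (without liver) to 0.65 (without brain), with -0.09 without spleen, and 0 to 1 genes were called. DESeq2 called 370 genes, among them 2 Siglec genes, Siglecf at 3.68 and Siglecg at 2.47, while edgeR without a filter on low counts called 3 and with the Nr1h3fl/fl control 1. Depth limits the ratios with 10 UMIs or fewer in WT: Siglecf in SMs, Siglecg in AMs, Siglec1 in microglia, and Siglech in KCs and AMs, where WT had 0.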
